A study of Drosophila melanogaster with 8 samples.

Results

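Dopamine, serotonin and octopamine act in the fly nervous system through G protein-coupled receptors that sit in the neuronal membrane and change cyclic AMP or calcium inside the cell. Receptors that couple to Gs raise cyclic AMP, those that couple to Gi lower it, and those that couple to Gq release calcium through phospholipase C. In Drosophila they are known for roles in learning in the mushroom body, arousal, feeding and locomotion. The genes described here are the 4 dopamine receptors Dop1R1, Dop1R2, Dop2R and DopEcR, the octopamine receptor Oamb and the 5 serotonin receptors 5-HT1A, 5-HT1B, 5-HT2A, 5-HT2B and 5-HT7. They were taken by symbol from the deposited expression table, and these 10 genes of 17807 were all found and all passed the filter on low values (at least 1 CPM in at least 2 libraries).

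The values come from total RNA of the central nervous system (CNS) dissected from first instar larvae of Drosophila melanogaster, in 8 libraries of 3 genotypes. Double mutants of elav and fne (elav5/fne) gave 3 libraries, single mutants with elav5, a known deletion allele, gave 2, and the wild-type strain Canton-S gave 3. Both mutant genotypes thus carry elav5. Larvae of all 3 genotypes were homozygous, viable and chosen by hand from a visible marker, and the labels name neither the allele of fne nor the genetic background of the mutants. elav and fne encode neuronal proteins of the ELAV/Hu family that bind RNA and affect how transcripts are spliced and where they end. The comparisons ask how the receptor transcripts differ between each mutant and the wild type, and between the mutants. Expression is in CPM, the reads of a gene per 1000000 reads counted in genes of that library. A difference is the difference of mean log2(CPM + 1) between genotypes, given with its standard error (SE) and tested with limma and adjusted by Benjamini-Hochberg over the 10575 genes tested, with a threshold of 0.05. Nothing in the labels says that libraries of 1 genotype hold different larvae, and the p-values cover only the spread among these libraries, which may be technical.

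Between 30038106 and 38056274 reads were counted in genes per library, and between 546 and 18667 reads stood behind each receptor value. The elav transcript was at 53.2 to 61.0 CPM in elav5/fne, 24.4 to 33.4 CPM in elav5 and 599 to 620 CPM in Canton-S. The fne transcript was at 127 to 179 CPM in elav5/fne, 938 to 1129 CPM in elav5 and 960 to 1045 CPM in Canton-S. Each library followed its label for both genes. Though both mutants carry elav5, elav was higher in elav5/fne than in elav5 (log2 difference 0.94, SE 0.13, limma adjusted p = 0.00077). The cause was not tested. All 11 pan-neuronal and all 9 glial marker genes were above 0 in each genotype. Elav5/fne replicate 3 stood apart from its group in marker genes of other tissues, and the 2 elav5 libraries differed from each other, so results that rest on 1 of these libraries are given with and without it. In these bulk samples, fewer cells of a type and less RNA per cell cannot be told apart.

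Of the 10 receptors 6 lie on chromosome arm 3R, 2 on 2R, 1 on 3L and 1 on X, in dm6 coordinates of the Ensembl annotation (BDGP6.54). Dop1R1 (FBgn0011582) spans 14165379 to 14214810 on 3R, Dop1R2 (FBgn0266137) 29630304 to 29659984, Oamb (FBgn0024944) 20689018 to 20714577 and 5-HT7 (FBgn0004573) 30968236 to 31016875, all 4 on the minus strand. On the plus strand of 3R lie 5-HT2A (FBgn0087012) at 4612870 to 4633304 and 5-HT2B (FBgn0261929) at 8578205 to 8629996. DopEcR (FBgn0035538) lies on 3L at 4367649 to 4380387 and Dop2R (FBgn0053517) on X at 20004680 to 20062706, both on the minus strand. 5-HT1A (FBgn0004168, 2R, 19067155 to 19121958, plus strand) and 5-HT1B (FBgn0263116, 2R, 19022325 to 19032642, minus strand) lie 34.5 kb apart. No annotated exon of another gene overlaps the exons of any of the 10, so reads of overlapping genes do not enter their values by this annotation. The merged exons measure between 4026 and 6530 bases in 9 of the genes and 14565 bases in Dop1R1, where the longest annotated 3′ UTR, of 12541 bases, makes up 86.1%. A CPM per gene sums over all 3′ ends and splice forms and does not say which were used. The shortest annotated transcript of Dop1R1 measures 2616 bases. CPM also depends on transcript length, so a difference in CPM is not by itself a difference in the number of molecules. The lengths in use were not tested.

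The serotonin receptor 5-HT1A was the most abundant of the 10 in the wild-type CNS and 5-HT2A the least, when levels are set per kilobase of merged exons, and the first place did not hold under another length. In Canton-S 5-HT1A, which couples to Gi, stood at 97.2 ± 5.43 CPM per kb (SD, n = 3). The D2-like receptor Dop2R, also of the Gi kind, followed at 64.6 ± 1.14 CPM per kb and DopEcR, a receptor for dopamine and for ecdysteroids, at 62.7 ± 1.34 CPM per kb, and the libraries of these last 2 genes overlap. Oamb, an octopamine receptor that raises calcium, stood at 34.2 ± 1.57, the Gs-coupled 5-HT7 at 31.8 ± 1.55 and the D1-like Dop1R2 at 30.1 ± 1.75 CPM per kb, and the libraries of 5-HT7 and Dop1R2 overlap. Dop1R1, the other D1-like receptor, reached 19.3 ± 0.462, 5-HT2B 14.7 ± 0.480, 5-HT1B 9.64 ± 0.657 and 5-HT2A 6.58 ± 0.409 CPM per kb. The 5-HT2 receptors couple to Gq. All neighbours in this order other than the 2 pairs named had libraries that did not overlap. The order depends on the length used: with the shortest annotated transcript as the length, a choice made after the values were seen, only 3 of 10 receptors kept their rank. DopEcR then ranked 1 at 111 CPM per kb, Dop1R1 ranked 2 rather than 7 at 107.5 CPM per kb, and 5-HT1A ranked 3 rather than 1 at 97.2 CPM per kb, while 5-HT2A remained the lowest.

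**Figure D1:**
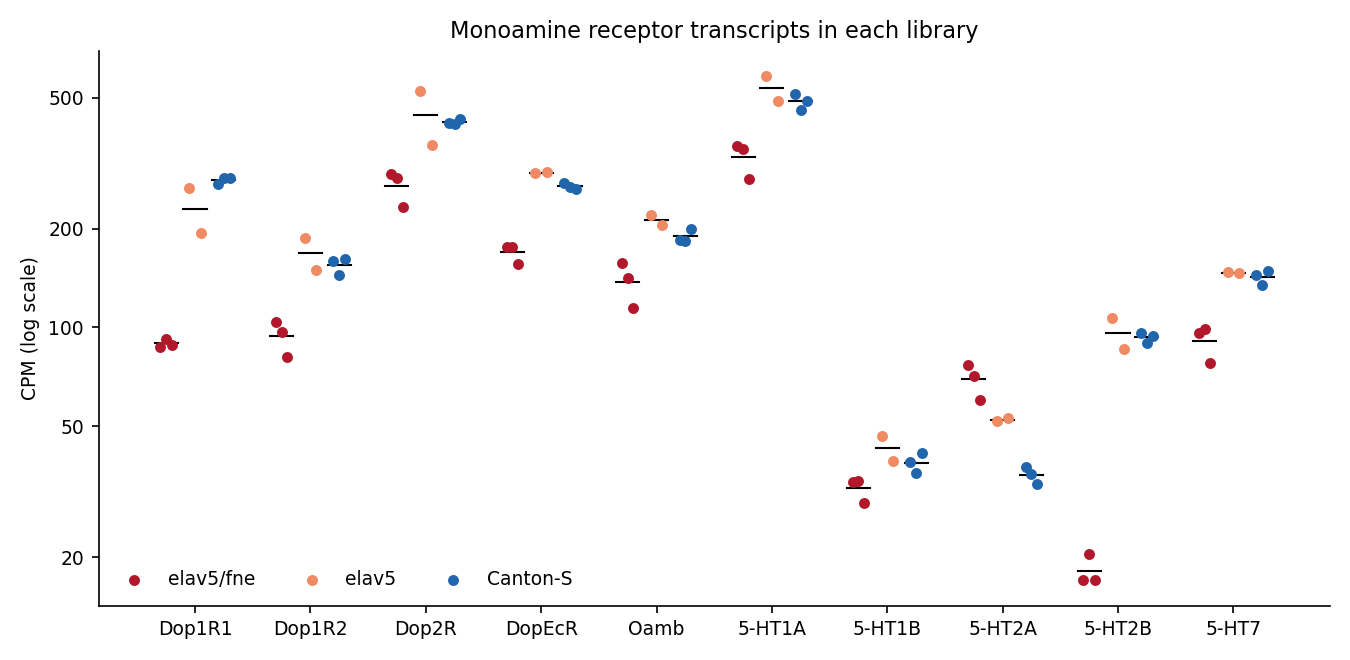
CPM of the 10 receptor transcripts in each library on a log scale; points are libraries (elav5/fne n = 3, elav5 n = 2, Canton-S n = 3) and bars are group means. In 9 of 10 receptors the elav5/fne libraries lie below all Canton-S libraries, and 5-HT2A lies above them.

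Most of these receptors had lower CPM in the elav5/fne double mutant. In all, 9 of the 10 changed, beside 59.2% of all genes tested. Of the 10, 8 fell, 1 rose (5-HT2A) and 1 (5-HT1B) missed the threshold, beside 26.7% of all genes tested that were lower and 32.5% that were higher in elav5/fne than in Canton-S. Of the genes called, 54.9% were thus higher, but 41.3% after quantile normalization. The median log2 difference of the 10 receptors was -0.65, against 0.07 over all genes tested. The 2 largest falls were those of 5-HT2B and Dop1R1, the only ones of at least 2-fold among the 10, a size reached by 6.26% of all genes tested. In 9 of 10 receptors the elav5/fne libraries lay below every Canton-S library without overlap, as for 31.9% of all genes tested, and in 1 of 10 above them, as for 37.6%.

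5-HT2B, which in the fly has been tied to sleep regulation, had the lowest level left. It stood at 17.0, 20.4 and 17.0 CPM in elav5/fne, against 95.9, 89.9 and 93.9 CPM in Canton-S. All 3 elav5/fne libraries lay far below the Canton-S libraries, at 19.4% of their mean. The log2 difference was -2.30 (SE 0.11, limma adjusted p = 2.5e-06), and 99 of the 10575 genes tested had a difference as low or lower, 5-HT2B included. Per kilobase it ranked 10 of the 10 receptors in elav5/fne, at 2.86 ± 0.311 CPM per kb, and 8 in Canton-S.

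Its paralog of the same coupling class went the other way. 5-HT2A stood at 77.1, 70.9 and 60.3 CPM in elav5/fne, against 37.7, 35.8 and 33.3 CPM in Canton-S. The groups do not overlap, and the mean was 1.95 times that of Canton-S, with a log2 difference of 0.94 (SE 0.10, limma adjusted p = 0.00014). The ratio of 5-HT2A to 5-HT2B CPM was 4.53, 3.48 and 3.55 in the elav5/fne libraries, against 0.393, 0.398 and 0.354 in Canton-S, so the order of the pair was turned in all 3 libraries of the double mutant. Per kilobase 5-HT2A ranked 7 in elav5/fne, at 12.8 ± 1.57 CPM per kb, and 10 in Canton-S.

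The 3 other serotonin receptors differed less. 5-HT1A, an inhibitor of cyclic AMP, stood at 356, 350.5 and 284 CPM in elav5/fne, against 514, 459 and 491 CPM in Canton-S, and fell by 0.57 on the log2 scale (SE 0.11, limma adjusted p = 0.0033). 5-HT7, which raises cyclic AMP, stood at 96.3, 98.7 and 77.9 CPM in elav5/fne, against 144, 135 and 148 CPM in Canton-S, and fell by 0.65 (SE 0.10, limma adjusted p = 0.00082). Both groups of libraries are apart for each of these genes, with replicate 3 the lowest in elav5/fne. 5-HT1B, the second Gi-coupled serotonin receptor, stood at 33.9, 34.2 and 29.2 CPM in elav5/fne, against 38.8, 36.1 and 41.4 CPM in Canton-S. Its log2 difference was -0.25, with a 95% interval from -0.49 to -0.01 and a limma adjusted p = 0.067. The call on 5-HT1B depends on the scaling: edgeR and DESeq2 on whole reads, TMM, median-ratio and quantile scaling each called it lower, with adjusted p between 0.023 and 0.044, so that 9 of 10 receptors were then lower and 1 higher. By edgeR 30.2% of all genes were lower and 30.4% higher, and by DESeq2 30.2% were lower and 32.4% higher.

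Expressed as a share of the summed CPM per kb of the 5 serotonin receptors, 5-HT1A made up 59.9 ± 0.357% in elav5/fne and 60.8 ± 0.680% in Canton-S (SD, n = 3 each). The share of 5-HT7 was 18.5 ± 0.354% in elav5/fne and 19.9 ± 0.522% in Canton-S. 5-HT2A made up 11.7 ± 0.434% in elav5/fne and 4.12 ± 0.294% in Canton-S, while 5-HT2B made up 2.62 ± 0.296% in elav5/fne and 9.21 ± 0.147% in Canton-S. 5-HT1B made up 7.36 ± 0.257% in elav5/fne and 6.03 ± 0.289% in Canton-S. The widest shifts in share were those of the 5-HT2 pair, and shares were not tested. They use merged exons and depend on that length. By the shortest transcript, Canton-S had 97.2 CPM per kb for 5-HT1A, 40.6 for 5-HT7 and 23.2 for 5-HT2B. It had 13.0 for 5-HT1B and 11.2 for 5-HT2A, and no shares were computed with the shortest transcript.

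**Figure D2:**
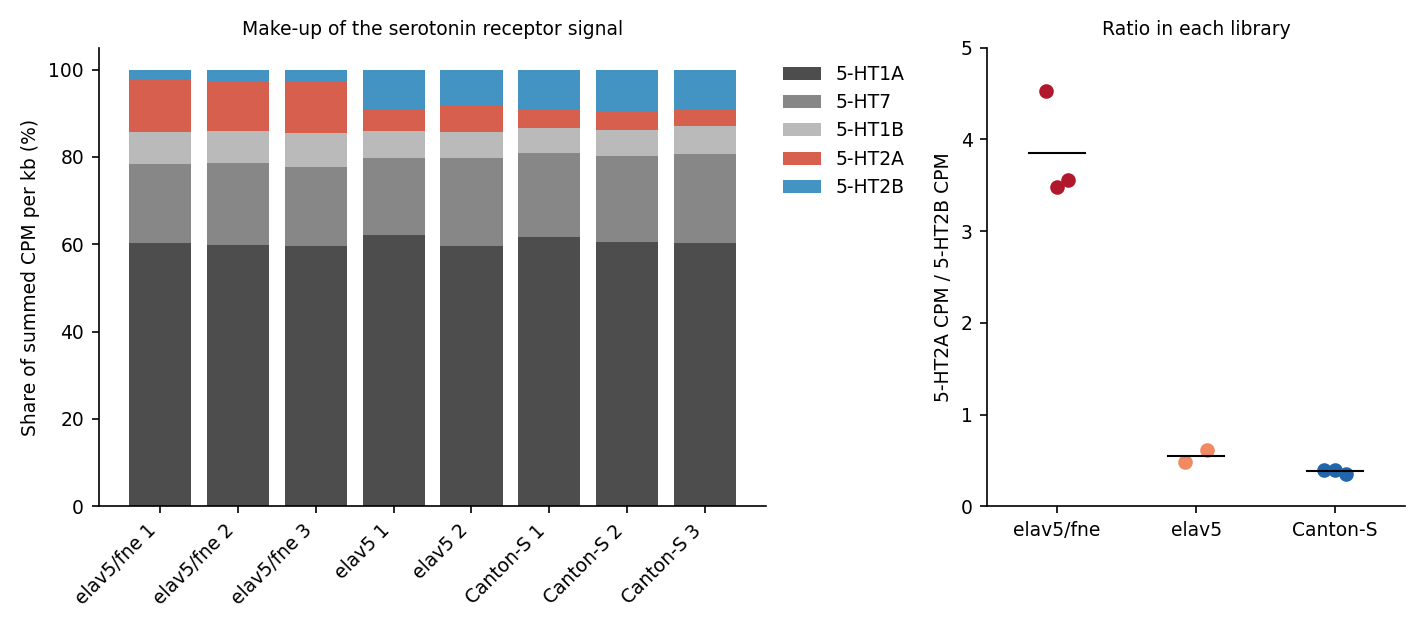
Left, share of each serotonin receptor in the summed CPM per kb of merged exons of the 5 genes, in each library. Right, ratio of 5-HT2A to 5-HT2B CPM, with points for libraries and bars for group means. 5-HT1A makes up between 59.5% and 62.1% in every library, and the ratio lies between 3.48 and 4.53 in elav5/fne and below 0.62 in the other libraries.

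Among the dopamine receptors, Dop1R1, the Gs-coupled receptor needed for olfactory learning in the mushroom body, changed most. It stood at 87.0, 92.5 and 88.7 CPM in elav5/fne, against 273, 285 and 285 CPM in Canton-S, and the 3 elav5/fne libraries had the lowest coefficient of variation of the 10 receptors, 3.17%. The mean was 31.8% of that in Canton-S, with a log2 difference of -1.64 (SE 0.11, limma adjusted p = 1.1e-05). The groups do not overlap, and its rank per kilobase was 9 in elav5/fne, at 6.14 ± 0.194 CPM per kb, and 7 in Canton-S. These ranks use merged exons, and with the shortest transcript as the length it ranked 2 in Canton-S.

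The other 3 dopamine receptors fell by similar amounts. Dop2R, which lowers cyclic AMP, stood at 294, 286 and 232 CPM in elav5/fne, against 419, 416 and 430.0 CPM in Canton-S, a fall of 0.65 on the log2 scale (SE 0.15, limma adjusted p = 0.0065). DopEcR stood at 176, 176 and 156 CPM in elav5/fne, against 275, 268 and 264 CPM in Canton-S, and fell by 0.67 (SE 0.07, limma adjusted p = 0.00011). Dop1R2, known for its part in forgetting, ranged from 81.1 to 104 CPM in elav5/fne and from 145 to 162 CPM in Canton-S, and fell by 0.72 (SE 0.12, limma adjusted p = 0.0013). In each of the 3 the groups do not overlap. As shares of the summed CPM per kb of the 4 dopamine receptors, Dop1R1 made up 5.87 ± 0.598% in elav5/fne and 10.9 ± 0.359% in Canton-S, and Dop1R2 17.3 ± 0.601% and 17.0 ± 0.766% (SD, n = 3 each, in the same order of genotypes). These shares depend on the length used. With the shortest transcript, Canton-S had 107.5 CPM per kb for Dop1R1, 31.1 for Dop1R2, 96.7 for Dop2R and 111 for DopEcR. Shares were not computed with that length.

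The octopamine receptor Oamb had the smallest of the called falls. It stood at 157, 142 and 114 CPM in elav5/fne, against 185, 184 and 199 CPM in Canton-S, with a log2 difference of -0.47 (SE 0.11, limma adjusted p = 0.0088). The groups do not overlap, and elav5/fne replicate 3 was again the lowest.

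**Figure D3:**
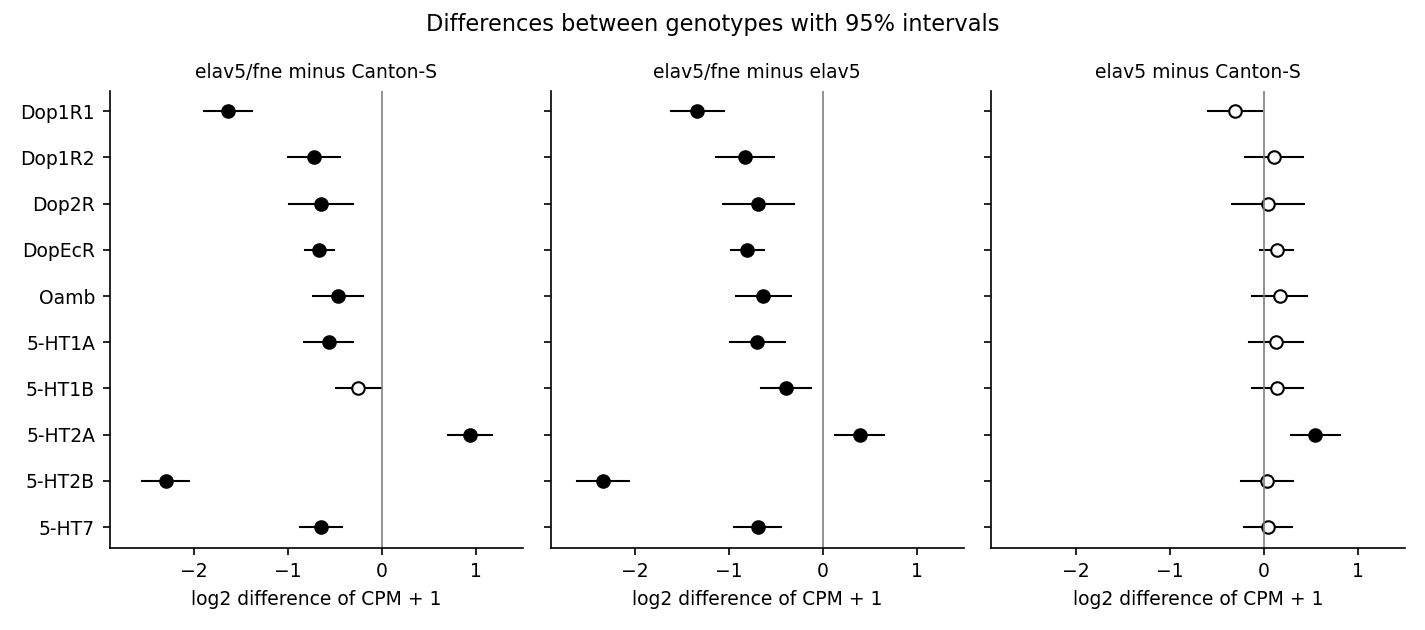
Log2 difference of CPM + 1 with its 95% interval for each receptor in 3 comparisons; filled points have a limma adjusted p under 0.05. 5-HT2B and Dop1R1 lie lowest in both comparisons of elav5/fne, and 5-HT2A is the only filled point to the right of 0 in each panel.

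Elav5/fne replicate 3 was the lowest of its group for 9 of 10 receptors, all but Dop1R1. The 10 receptors summed to 1398, 1368 and 1140 CPM in elav5/fne replicates 1 to 3, against 2143, 2054 and 2147 CPM in Canton-S. Marker genes of other tissues moved with this: 10 muscle genes summed to 2503, 5816 and 14686 CPM in elav5/fne, against 1223 to 1577 CPM in Canton-S, with 7 of 10 called higher, and 9 gut genes to 58.2, 206 and 537 CPM, against 30.5 to 51.2 CPM, with 6 of 9 called higher. Of the genes of trachea and cuticle 5 of 7 were higher, of hemocytes 4 of 8 and of fat body 0 of the 4 tested. Among all genes tested 32.5% were higher. None of these genes was at 0 in all libraries of a genotype. Without elav5/fne replicate 3 and elav5 replicate 2 together, 8 receptors were still lower and 1 higher in elav5/fne than in Canton-S, Oamb with a log2 difference of -0.34 and Dop2R with -0.54. The part of other tissues in the remaining differences was not tested.

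Pan-neuronal markers fell in the same libraries: of 11 genes 10 were lower and none higher in elav5/fne than in Canton-S, with a median log2 difference of -0.93 and a sum of 9420 to 10789 CPM, against 18119 to 18484 CPM. Examples are the syntaxin gene Syx1A at 326 ± 16.8 CPM in elav5/fne and 757 ± 9.93 CPM in Canton-S, and CadN, a cadherin of axons, at 1610 ± 120 and 2636 ± 37.3 CPM in the same order (SD, n = 3 each). Neuroblast genes were higher, 7 of 7, with sums of 902 to 1168 CPM in elav5/fne, against 215 to 226 CPM in Canton-S. Of 9 glial genes 1 was higher and 3 lower, with sums of 4693 to 5830 CPM in elav5/fne, against 5898 to 6208 CPM in Canton-S. Of 8 genes prominent in the mushroom body, where several of these receptors are abundant in the adult, 1 was higher and 2 lower, with a median of -0.25. Among all genes tested 26.7% were lower and 32.5% higher, and the glial and mushroom body counts of lower genes were near that share. How far the cell make-up of the samples enters the receptor differences was not tested.

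**Figure D4:**
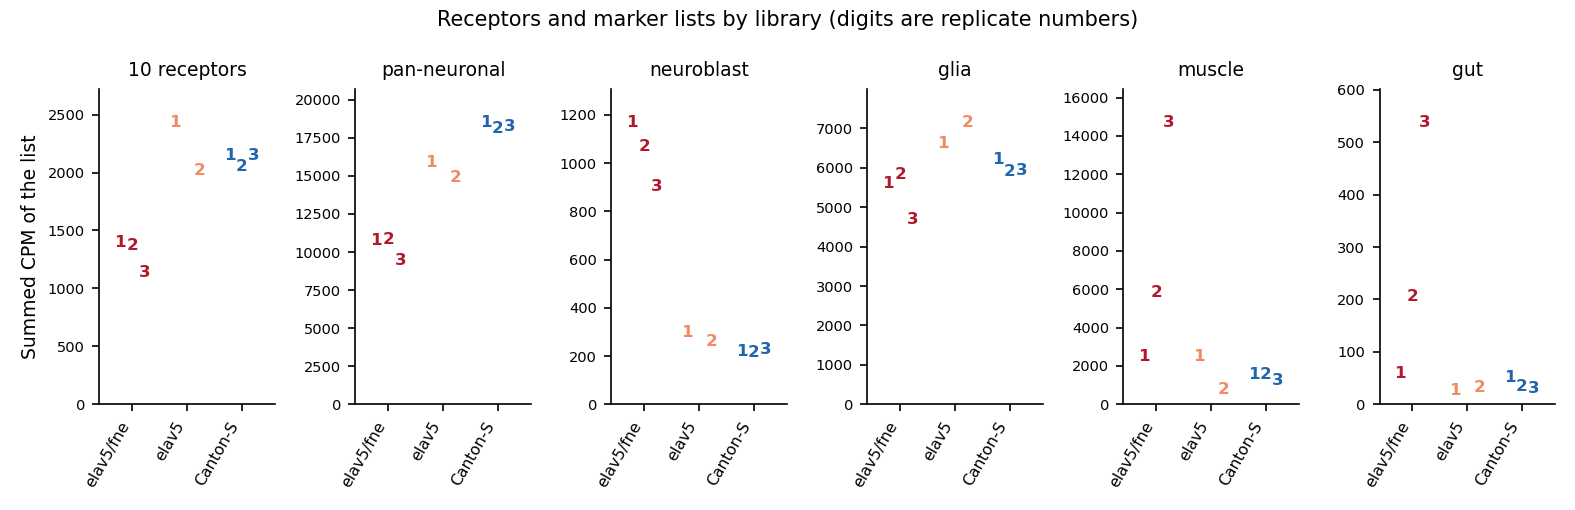
Summed CPM of the 10 receptors and of 5 marker lists in each library, with replicate numbers as symbols and a separate axis from 0 for each list. The receptor sum lies between 1140 and 1398 CPM in elav5/fne and above 2000 CPM in all other libraries, and elav5/fne replicate 3 has the highest muscle and gut sums.

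Against Canton-S, fewer receptors, and also fewer of all genes, were called in the elav5 single mutant than in the double mutant. Of the 10, only 5-HT2A passed the test in elav5 against Canton-S, beside 20.1% of all genes tested, and it was higher, as were 8.29% of all genes, while 11.8% were lower. It was also the 1 receptor called higher by edgeR and by DESeq2, beside 9.06% and 13.5% of all genes. No receptor was called lower by limma, by edgeR (9.65% of all genes) or by DESeq2 (12.2% of all genes), and at an unadjusted p under 0.05 limma had 1 lower, Dop1R1, while edgeR and DESeq2 had 0. None was lower by 2-fold or more, as 1.98% of all genes were. The median log2 difference of the 10 was 0.12, against -0.04 over all genes tested. 5-HT2A stood at 52.0 and 52.9 CPM in elav5, against 37.7, 35.8 and 33.3 CPM in Canton-S. Both elav5 libraries lay above all Canton-S libraries, with a log2 difference of 0.55 (SE 0.11, limma adjusted p = 0.016). Without elav5 replicate 2 the difference was 0.54, but with 1 library left the adjusted p was 0.071. The ratio of 5-HT2A to 5-HT2B CPM was 0.488 and 0.616 in elav5, above the 0.354 to 0.398 of Canton-S.

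Dop1R1 was the 1 receptor with a negative difference. It stood at 267 and 194 CPM in elav5, against 273, 285 and 285 CPM in Canton-S, and both elav5 libraries were below all Canton-S libraries, though by very different amounts. The log2 difference was -0.31 (SE 0.12, 95% interval -0.59 to -0.02, limma adjusted p = 0.12). It was -0.54 without elav5 replicate 1 (adjusted p = 0.0071) and -0.08 without elav5 replicate 2 and elav5/fne replicate 3, so it rested on which elav5 library was kept.

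For the other 8 receptors the elav5 means were between 103% and 112% of those of Canton-S. The 95% intervals of their log2 differences lay between -0.34 and 0.46, so changes of that size are not excluded by these libraries. 5-HT2B stood at 107 and 85.9 CPM in elav5, on both sides of the Canton-S libraries at 95.9, 89.9 and 93.9 CPM, with a log2 difference of 0.04 (SE 0.12, limma adjusted p = 0.85). DopEcR, at 295 and 298 CPM in elav5, and Oamb, at 219.9 and 206 CPM, lay above all their Canton-S libraries without passing the test (adjusted p = 0.23 and 0.39 by limma). With 5-HT2A these make 3 of 10 receptors above Canton-S without overlap, and Dop1R1 is the 1 below it, as for 22.9% and 30.7% of all genes tested.

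The coefficient of variation was larger in elav5 than in Canton-S for 7 of 10 receptors. Replicate 2 was the lower for 8 of 10 receptors, all but DopEcR and 5-HT2A. The gap was widest for Dop2R, at 525 CPM in replicate 1 and 359 CPM in replicate 2, and for Dop1R1. Muscle genes summed to 2520 CPM in replicate 1 and 752 CPM in replicate 2, and pan-neuronal genes to 15856 and 14866 CPM, against 18119 to 18484 CPM in Canton-S. Of the 11 pan-neuronal genes 3 were lower in elav5 than in Canton-S, and of the 7 neuroblast genes 2 were higher. Among all genes tested 11.8% were lower and 8.29% higher. Without elav5 replicate 2 and elav5/fne replicate 3 together, the log2 difference of Dop2R between elav5 and Canton-S was 0.32. Without elav5 replicate 1 it was -0.23. Each of these fits leaves 1 elav5 library, so the sign rested on which was kept.

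The comparison of the mutants with each other sets elav5 with and without the fne mutation side by side, going by the labels. All 10 receptors passed the test, beside 43.4% of all genes tested. The 9 receptors other than 5-HT2A were lower in elav5/fne than in elav5, beside 16.7% of all genes that were lower and 26.8% that were higher. Of the genes called, 61.6% were thus higher, but 49.2% under TMM scaling and 43.0% after quantile normalization. The same 9 were lower by edgeR, beside 20.2% of all genes, and by DESeq2, beside 22.2%. The median of the 10 was -0.70, against 0.14 over all genes tested. This comparison shares its elav5/fne and elav5 libraries with the comparisons with Canton-S above.

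5-HT2B, at 17.0, 20.4 and 17.0 CPM in elav5/fne, against 107 and 85.9 CPM in elav5, fell by 2.34 on the log2 scale (SE 0.12, limma adjusted p = 9.7e-06). Dop1R1, at 87.0, 92.5 and 88.7 CPM in elav5/fne, against 267 and 194 CPM in elav5, fell by 1.34 (SE 0.12, limma adjusted p = 0.00010). These were the only 2 of at least 2-fold, a size that 5.02% of all genes reached. The other falls ran between 0.40 for 5-HT1B and 0.83 for Dop1R2 on the log2 scale. No receptor's elav5/fne libraries overlapped those of elav5, with 9 of 10 lower and 1 higher, as for 24.1% and 39.5% of all genes tested. The call on 5-HT1B (limma adjusted p = 0.027) was lost under 4 of 21 alternatives: without elav5 replicate 1 (log2 difference -0.27), without elav5/fne replicate 3 (-0.33), with the replicate block (-0.38, adjusted p = 0.073) and in a limma fit of only these groups (-0.40, adjusted p = 0.062).

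5-HT2A was at 77.1, 70.9 and 60.3 CPM in elav5/fne, against 52.0 and 52.9 CPM in elav5, with a log2 difference of 0.39 (SE 0.11, limma adjusted p = 0.025). The call was lost under TMM, median-ratio and quantile scaling, by edgeR and by DESeq2, where the difference was between 0.26 and 0.30 (20.6% of all genes were higher by edgeR and 24.1% by DESeq2), in a fit of only these groups, and when any of 4 libraries was left out, both of elav5 and replicates 1 and 2 of elav5/fne. A rise of 5-HT2A beyond the level in elav5 is therefore not settled by these libraries, unlike its rise over Canton-S, which kept its call under all 21 alternatives run.

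The octopamine and tyramine receptors outside the 10 went the same way in the double mutant. All 7 were lower in elav5/fne than in Canton-S, none was lower in elav5 than in Canton-S, and 6 of 7 were lower in elav5/fne than in elav5, with medians of -0.83, 0.01 and -0.84 on the log2 scale. In the same order of comparisons, 26.7%, 11.8% and 16.7% of all genes tested were lower. Octbeta3R, a Gs-coupled octopamine receptor, averaged 104 ± 11.2 CPM in elav5/fne, 232 ± 25.3 CPM in elav5 (n = 2) and 232 ± 7.46 CPM in Canton-S (SD, n = 3). TyrRII, a receptor of the tyramine group, averaged 5.17 ± 0.926 CPM in elav5/fne, 13.4 ± 0.334 CPM in elav5 and 16.2 ± 1.86 CPM in Canton-S.

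Genes that make and carry the transmitters were lower as well. Of 13 genes of monoamine synthesis and transport, 10 were lower and 1 higher in elav5/fne than in Canton-S, with a median of -0.83. Among all genes tested 26.7% were lower and 32.5% higher. The vesicular monoamine transporter gene Vmat and the octopamine-forming enzyme gene Tbh, at 68.8 ± 5.30 CPM in elav5/fne and 186 ± 4.97 CPM in Canton-S, had the smallest p-values. Vmat averaged 196 ± 35.8 CPM in elav5/fne and 1399 ± 37.3 CPM in Canton-S. SerT and DAT, the plasma membrane transporters of serotonin and dopamine, had log2 differences of -2.32 and -2.29, close to that of 5-HT2B. The 1 higher gene was Hn, phenylalanine hydroxylase, which varied widely at 17.8 ± 14.1 CPM in elav5/fne and 1.75 ± 0.792 CPM in Canton-S. In elav5 against Canton-S 2 of the 13 were lower and none higher, beside 11.8% and 8.29% of all genes tested.

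Downstream of the receptors, 7 of 10 tested G protein subunit genes were lower and 2 higher in elav5/fne than in Canton-S, with a median of -0.62. Among all genes tested 26.7% were lower and 32.5% higher. Galphaq, the subunit to which the 5-HT2 receptors couple, averaged 80.7 ± 7.86 CPM in elav5/fne and 199 ± 7.53 CPM in Canton-S, with a log2 difference of -1.30. Galphai, which serves the Gi-coupled receptors and also acts in neuroblast division, rose to 108 ± 1.08 CPM in elav5/fne, against 36.9 ± 0.703 CPM in Canton-S. Galphao, an alpha subunit gene with far more CPM than Galphai, went the other way. It averaged 716 ± 68.6 CPM in elav5/fne and 1556.5 ± 21.2 CPM in Canton-S, with a log2 difference of -1.12. Galphas, which serves Dop1R1 and 5-HT7, fell by 0.50 on the log2 scale. In elav5 against Canton-S 1 of the 10 was lower, Galphaq, and none higher, beside 11.8% and 8.29% of all genes tested.

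Of 19 effector genes of cyclic AMP and phospholipase C signalling, 14 were lower and 1 higher in elav5/fne than in Canton-S, with a median of -0.67. Among all genes tested 26.7% were lower and 32.5% higher. The adenylyl cyclase gene Ac3 averaged 149 ± 6.70 CPM in elav5/fne and 516 ± 8.18 CPM in Canton-S, and Pkc53E, a calcium-activated protein kinase C, 145 ± 14.5 and 461 ± 21.6 CPM in the same order. The learning genes rut, an adenylyl cyclase, and dnc, a cyclic AMP phosphodiesterase, had log2 differences of -0.71 and -0.65. Of 6 receptor regulators 4 were lower and 1 higher, namely loco, a regulator of G protein signalling, at 159 ± 4.72 CPM in elav5/fne and 77.5 ± 2.92 CPM in Canton-S. In elav5 against Canton-S 4 of the 19 effectors and 1 of the 6 regulators were lower, and none higher, beside the 11.8% of all genes tested that were lower.

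**Figure D5:**
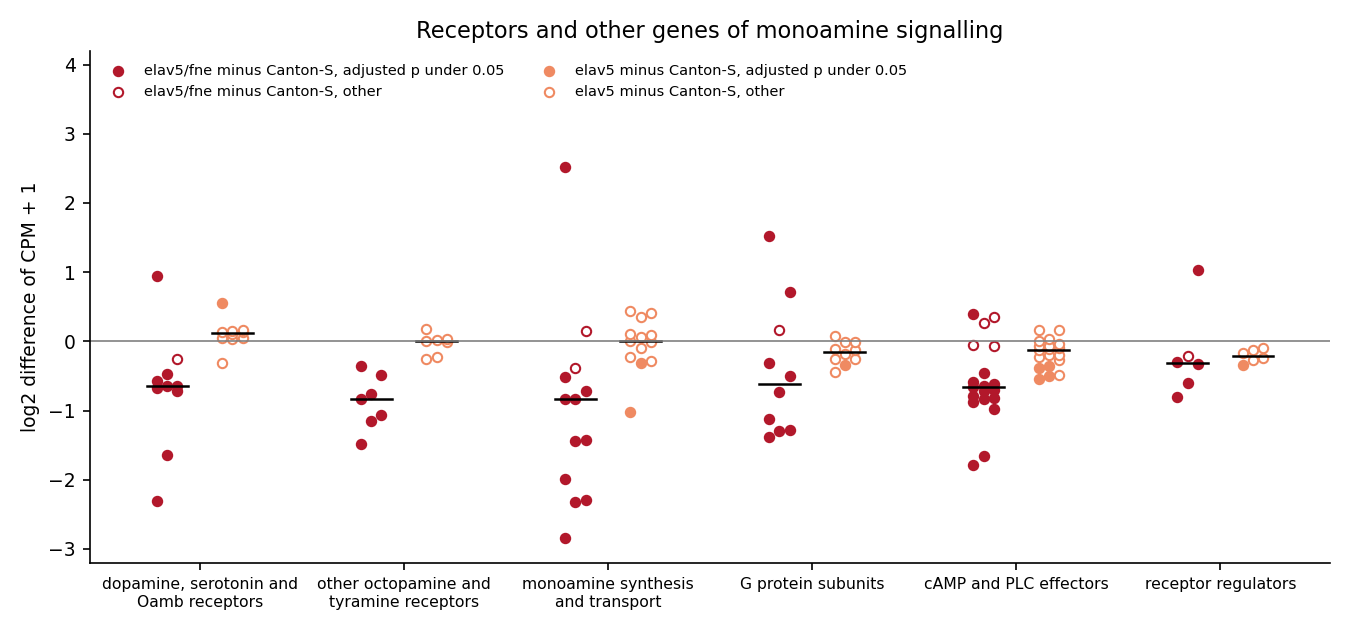
Log2 difference of CPM + 1 against Canton-S for each gene of 6 lists, in elav5/fne and in elav5; filled points have a limma adjusted p under 0.05 and bars are list medians. List medians lie between -0.83 and -0.31 in elav5/fne and between -0.21 and 0.12 in elav5.

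Each receptor's course over the 8 libraries was set against those of 8025 other genes with a mean of at least 5 CPM, by the root mean square (RMS) difference of log2(CPM + 1) after centring each gene on its own mean. The nearest 2 genes of each receptor differed from it by 0.03 to 0.11, and none of these 20 genes was another of the 10 receptors. With so few receptors among 8025 candidates, that count says little about whether the receptors share a course. For Dop1R2 the nearest was TkR99D, a tachykinin receptor (RMS 0.04), and for 5-HT7 they were Dh31-R, a neuropeptide receptor (0.04), and dpr1, an immunoglobulin-domain protein (0.04). For 5-HT1A they were the neuroligin Nlg2 (0.03) and the lipophorin receptor LpR1 (0.04), for Oamb dpr4 (0.04) and the kinesin unc-104 (0.04), and for DopEcR Septin4 (0.03) and CG6024 (0.04). Pde1c, a phosphodiesterase, and CG43373 were nearest to Dop2R, and Cad87A and Dgk, a diacylglycerol kinase, to 5-HT1B. This distance grows with the size of a gene's own changes, which was 1.13 as an RMS for 5-HT2B and 0.19 for 5-HT1B, so it is not compared between receptors. The nearest genes of 5-HT2B were mmd, a metalloprotease, and CG43902 (0.11 each), for Dop1R1 CG42809 (0.07) and CG32683 (0.09), and for 5-HT2A trn, a leucine-rich repeat protein, and CG13305 (0.08 each). trn averaged 253 ± 40.1 CPM in elav5/fne, 208 ± 0.451 CPM in elav5 and 143 ± 6.03 CPM in Canton-S, the same order of genotypes as 5-HT2A.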

How the data were processed

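The deposited values are CPM, which the authors computed per gene in each of the 8 libraries. Reads were aligned with HISAT2 and the build was dm6, per the submitters' processing notes. The kit for total RNA marked strand, per the labels' protocols. No source used here gives tool versions, the counter, the annotation or whether counting used strand. Values above 0 were whole multiples of 1 read (100% within 0.01 reads), which gave whole reads for edgeR and DESeq2.

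All 8 libraries and 3 genotypes entered a single limma fit of log2(CPM + 1) (limma 3.58.1 in R 4.3.3) with the variance trend on the mean. A gene was tested if 2 or more libraries had 1 CPM or more. Log values with a pseudocount understate changes of low genes. edgeR 4.0.16, DESeq2 1.42.0, other pseudocounts, filters and scalings, a replicate block and each library left out were alternatives. A chi-square per gene, computed without a p-value, ran from 26.0 to 142 over replicate pairs, above counting noise in each. The fit was also run on simulated counts in which few genes changed, as many up as down. In these data many genes were called, so that run does not test the scaling. Lengths and coordinates are from Ensembl BDGP6.54.

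The receptors and the 14 other lists, written from general knowledge, were chosen with earlier results of these data known. Named genes are all 10 receptors, the nearest 2 patterns of each, and the genes with the smallest p or highest mean of each list; SerT, DAT, Hn, Galphas, rut and dnc were named after their values were seen. Not all genes the rule gives are printed.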

Additional observations from a re-analysis of the deposited data

How the results depend on the processing

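In elav5/fne against Canton-S, the count of lower receptors was 8 or 9 and that of higher ones 1 under each of the 12 settings other than leaving out libraries, and 8 and 1 with each single library left out. In elav5 against Canton-S, the higher count ranged from 0 (without elav5 replicate 2) to 1 and the lower count from 0 to 1 over single libraries left out, and the higher count was 2 without elav5 replicate 2 and elav5/fne replicate 3 together. In elav5/fne against elav5, the lower count was 8 or 9 throughout, and the higher count 0 under TMM, median-ratio and quantile scaling, edgeR, DESeq2 and a fit of only the groups compared, and 0 to 1 over single libraries left out. Between elav5 and Canton-S the sign turned without elav5 replicate 1 for Dop1R2, Dop2R and 5-HT2B, whose log2 differences ran from -0.053 to 0.27, -0.23 to 0.32 and -0.12 to 0.19 over single libraries left out, and for Dop2R (-0.0036) with the replicate block. None of these turned values was called. Only 3 of 10 receptors kept their rank per kb with the shortest transcript, and 10 with the longest or with any Canton-S library left out. The cause of these changes was not tested.

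Deviations of same-numbered libraries from their group means correlated between -0.36 and 0.11. Deviations within a group depend on each other, so these values cannot tell whether replicate numbers pair the samples. With the replicate block, 8 and 1 receptors were lower and higher in elav5/fne against Canton-S, and 8 and 1 against elav5, where 5-HT1B lost its call (log2 difference -0.38). All genes called in elav5/fne against Canton-S were 54.9% higher ones, but 41.3% after quantile normalization, which moved the median over all genes from 0.07 to -0.11. Against elav5 they were 61.6%, but 49.2% under TMM and 43.0% after quantile normalization, with medians of 0.14, 0.02 and -0.07. The genes called in elav5 against Canton-S numbered 2124, but 932 with the block and 806 to 2589 with 1 library left out, the lowest counts being 806 without elav5 replicate 2, 904 without Canton-S replicate 1 and 1053 without Canton-S replicate 2. A group left with 1 library is assumed to vary like the others. Having 2 elav5 libraries limits the precision of each comparison that uses them.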

Other observations

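Among the 10 receptors, the order of the differences followed the length of the longest annotated 3′ UTR. This pattern was seen after the values were known, and over all genes it was weak or absent. In elav5/fne against Canton-S the Spearman correlation between that length and the log2 difference was -0.90 across the 10 receptors, and -0.83 across the 8 without Dop1R1 and 5-HT2B. Dop1R1 (12541 bases) and 5-HT2B (2975 bases) have the longest annotated 3′ UTRs and fell most, while 5-HT2A (1196 bases) and Oamb (1164 bases) have the shortest by this measure. The order rests on the longest form. By the shortest annotated 3′ UTR, Dop1R1 has 445 bases and 5-HT2B 527. Dop2R (2339), Dop1R2 (1663), 5-HT1A (1422) and 5-HT7 (742) then have more. Oamb (398), 5-HT2A (377), 5-HT1B (214) and DopEcR (27) have fewer. No correlation was computed with the shortest form. In elav5 against Canton-S, which shares the Canton-S libraries and where no receptor was called lower, the correlation was -0.94 across the 10 and -0.88 across the 8. There 9 of the 10 receptors were not called, so this value mostly ranks differences that the test did not tell from 0. In elav5/fne against elav5, which shares libraries with both, it was -0.84 and -0.71. Across 9744 genes tested with an annotated 3′ UTR the correlation was -0.09 in elav5/fne against Canton-S, 0.01 in elav5 against Canton-S and -0.11 between the mutants. In elav5/fne against Canton-S the 312 genes with a 3′ UTR of at least 2975 bases had a median log2 difference of -0.35, and the other 9432 genes one of 0.08. The same medians were -0.17 and -0.05 in elav5 against Canton-S, and -0.15 and 0.16 between the mutants. The cut is the length in 5-HT2B and was thus set by the pattern itself, and 5-HT2B and Dop1R1 are among the 312. These are descriptions across genes of the same libraries, which are not independent, and annotated length is not the length in use in these samples. What the pattern reflects was not tested.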
